A study of Mus musculus with 4 samples.

Results

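The integrin and laminin genes of the mouse were examined for peaks of acetylated lysine 27 of histone H3 (H3K27ac) in neural stem cells with and without a deletion of Smchd1, a gene for a chromatin protein involved in X inactivation. Members were the RefSeq protein-coding genes of chromosomes 1 to 19 and X whose symbols name an integrin alpha subunit (Itga), an integrin beta subunit from Itgb1 to Itgb8, or a laminin alpha, beta or gamma chain. The rule gave 37 genes of 21627, made up of 26 integrins and 11 laminins, and 0 of them lay on X. Each gene was given the peaks that overlapped its body extended by 10 kb on each side. Peaks were counted separately in the list the authors called for deleted cells and in the list they called for control cells.

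The cells were lines cultured from female E14.5 embryos of genotype Smchd1 del/fl, so control cells also carried 1 deleted allele by this protocol. Each line was divided into a transduced and an untransduced share. In both groups the maternal X was of strain 129 and carried the Xist deltaA allele, and the paternal X was of Castaneus origin, while the strain field reads C57BL/6. Deleted cells are titled Smchd1 del/del and were made by transduction with the retrovirus MSCV-Cre-puro, puromycin being added 24 h later and cells being collected on day 7. Loss of Smchd1, viral transduction and drug selection therefore cannot be told apart. Each group was 1 ChIP library with 1 whole-cell-extract input library, so no difference between groups has a replicate check and none was tested. The labels conflict in places. The titles name H3K27ac and the antibody field H3K27me3. The genotype field gives del/fl for the control ChIP, which is titled fl/fl, and del/del for the input of the control. The titles were followed.

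Integrins are receptors made of 1 alpha and 1 beta subunit that span the cell membrane and tie the extracellular matrix to the actin cytoskeleton. Laminins are secreted trimers of an alpha, a beta and a gamma chain, and they are main ligands of integrins in basement membranes. Neural stem cells of the embryonic brain touch a laminin-rich basement membrane and the ventricular surface, and such cells are often grown on laminin. H3K27ac is found at active promoters and enhancers.

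Promoters are shown for 4 members. Itgb8 and Itgav had the highest promoter fold among the integrins when the higher of both lists was taken, although in the control list Itgav (4.71) lay below Itgb1 (10.3) and Itga4 (6.33). Lamb2 and Itga8 were the members whose promoter window was overlapped by a peak of 1 list only. Each run is 5′ to 3′ on the strand of the gene, from 250 bases before to 50 bases after the start, taken from RefSeq on GRCm38.p6. The transcription start is base 251, and capitals mark CpG dinucleotides.
Itgb8, minus strand, chr12:119238227-119238526: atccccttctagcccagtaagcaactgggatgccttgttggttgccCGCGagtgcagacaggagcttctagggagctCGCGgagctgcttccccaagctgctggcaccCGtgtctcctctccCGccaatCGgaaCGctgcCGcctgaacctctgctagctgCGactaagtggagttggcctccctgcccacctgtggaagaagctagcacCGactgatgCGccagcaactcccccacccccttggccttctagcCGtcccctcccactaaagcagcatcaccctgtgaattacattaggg
Itgav, plus strand, chr2:83724147-83724446: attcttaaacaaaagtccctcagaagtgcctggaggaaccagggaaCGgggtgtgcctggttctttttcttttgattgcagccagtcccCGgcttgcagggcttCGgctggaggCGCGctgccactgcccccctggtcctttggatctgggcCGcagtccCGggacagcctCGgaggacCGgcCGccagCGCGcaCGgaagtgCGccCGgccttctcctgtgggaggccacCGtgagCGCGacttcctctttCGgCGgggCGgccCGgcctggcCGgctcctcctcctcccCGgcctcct
Lamb2, plus strand, chr9:108479612-108479911: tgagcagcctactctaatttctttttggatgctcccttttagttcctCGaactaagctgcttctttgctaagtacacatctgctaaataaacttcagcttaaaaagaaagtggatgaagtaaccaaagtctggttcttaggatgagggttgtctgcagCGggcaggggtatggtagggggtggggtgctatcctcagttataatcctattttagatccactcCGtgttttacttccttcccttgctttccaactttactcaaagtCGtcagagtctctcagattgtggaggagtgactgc
Itga8, minus strand, chr2:12301895-12302194: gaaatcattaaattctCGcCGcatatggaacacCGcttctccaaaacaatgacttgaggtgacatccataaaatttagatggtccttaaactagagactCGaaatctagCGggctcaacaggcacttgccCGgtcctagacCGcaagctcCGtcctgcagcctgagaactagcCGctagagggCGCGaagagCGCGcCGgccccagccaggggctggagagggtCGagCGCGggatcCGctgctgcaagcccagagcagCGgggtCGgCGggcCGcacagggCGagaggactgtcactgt
The Itgb8 window has 13 CpG and 60.7% G or C, and peaks of both lists covered all 300 of its bases. The Itgav window has 24 CpG and 67.3% G or C. Deleted peaks covered 300 of its bases and control peaks 178. In the Lamb2 window, which has 4 CpG and 44.0% G or C, the deleted peak covered 56 bases at the upstream end. In the Itga8 window, with 23 CpG and 59.0% G or C, the control peak covered the last 13 bases.

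The members were mostly marked in both lists. Of the 37 genes, 28 (75.7%) had a peak in both lists, against 64.4% of all protein-coding genes. In the deleted list only there were 3 members (8.11%, against 5.48% of all genes): the laminin alpha chains Lama1 and Lama2 and the integrin beta6 subunit Itgb6. In the control list only there was 1 member, Itga8 (2.70%, against 0.869%). The 5 members with no peak in either list (13.5%, against 29.3%) were Itgad, Itgam, Itgax, Itgb2 and Itgb3. The members are long genes, with a median body of 62.5 kb against 17.3 kb for all genes, and a range from 10.7 kb (Lamb2) to 636 kb (Lama2). A longer window catches more peaks, and the part of length in these shares was not tested. Over the summed windows, members had 6.50 deleted and 4.29 control peaks per 100 kb, against 6.91 and 5.02 for all genes. For all genes, a peak in overlapping windows was counted once per gene, 102242 times for 73471 deleted peaks. No peak was counted for more than 1 member, so these densities are not strictly alike.

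The deleted list held 274 peaks in the members' windows and the control list 181. The ratio of 1.51 lies near the 1.44 of all compared peaks. The ChIP of deleted cells kept 54194233 tags after filtering and the ChIP of control cells 42277672, a ratio of 1.28, and a deeper library passes weaker peaks. With the deleted list cut to the length of the control list by its q-values, the members had 182 and 181 peaks. Of the 3 members in the deleted list only, Lama2 alone then had a deleted peak, and Itga9 joined Itga8 in the control list only. The excess of deleted peaks cannot be told apart from the length of the list. By gene, 26 members had more deleted than control peaks. The alpha subunits Itga2, Itga4 and Itga8 had fewer, and Itga1, Itga9 and Itga10 had equal numbers above 0. The share of all genes with more deleted peaks was not counted, so these numbers are not read as a trait of the members.

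**Figure D1:**
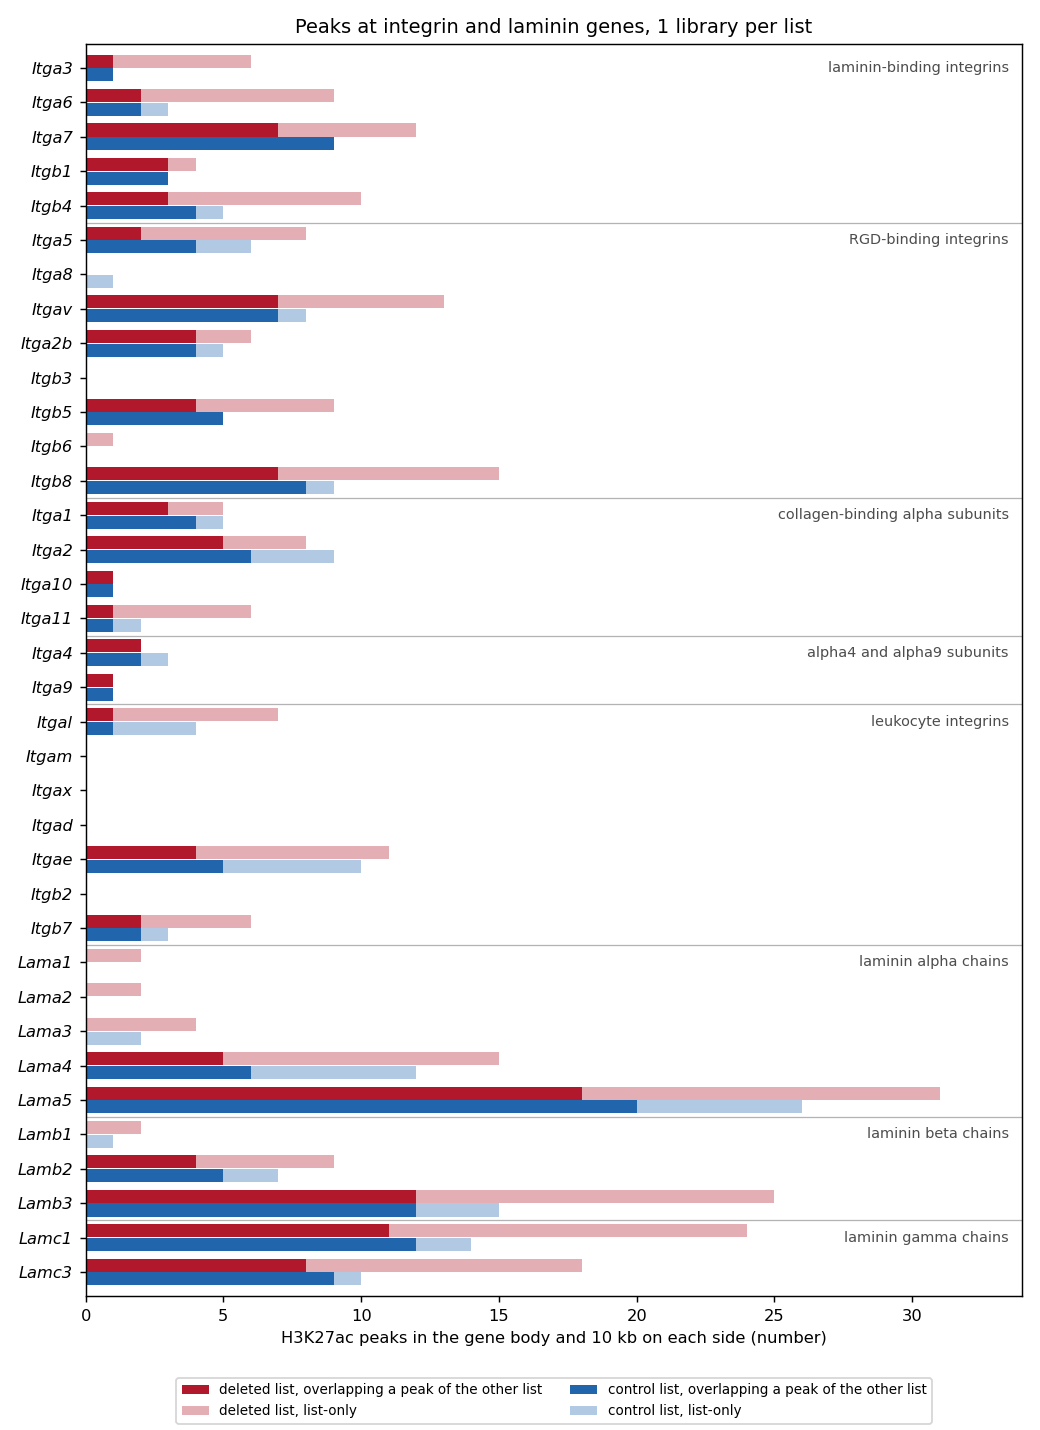
Number of H3K27ac peaks within 10 kb of the body of each member shown (horizontal axis) in the deleted and the control list, genes grouped by role, 1 library per list, with list-only peaks in the paler colour. Lama5 stands highest with 31 deleted and 26 control peaks, and 5 genes have 0 in both lists.

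Fold enrichment is the authors' ratio of a peak's pileup to its local background within 1 library. It is not scaled between libraries, so the values of both lists are set side by side and no change is read from them. The same holds for pileups, as the ChIP of deleted cells had 1.28 times the tags of the control ChIP. The highest folds of a gene in the lists can come from different peaks. A highest fold of 5 or more was reached by 19 of 37 members in the deleted list (51.4%, against 54.2% of all genes) and by 19 in the control list (51.4%, against 51.7%). These were the same 17 genes plus Itga2b and Itga3 in the deleted list, and Itga1 and Itga6 in the control list. The median highest fold of members with a peak was 6.38 (deleted) and 6.33 (control), below the 7.56 and 7.26 of all genes with a peak. A peak was thus listed for a larger share of the members than of all genes, while the median highest fold of the members was lower.

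**Figure D2:**
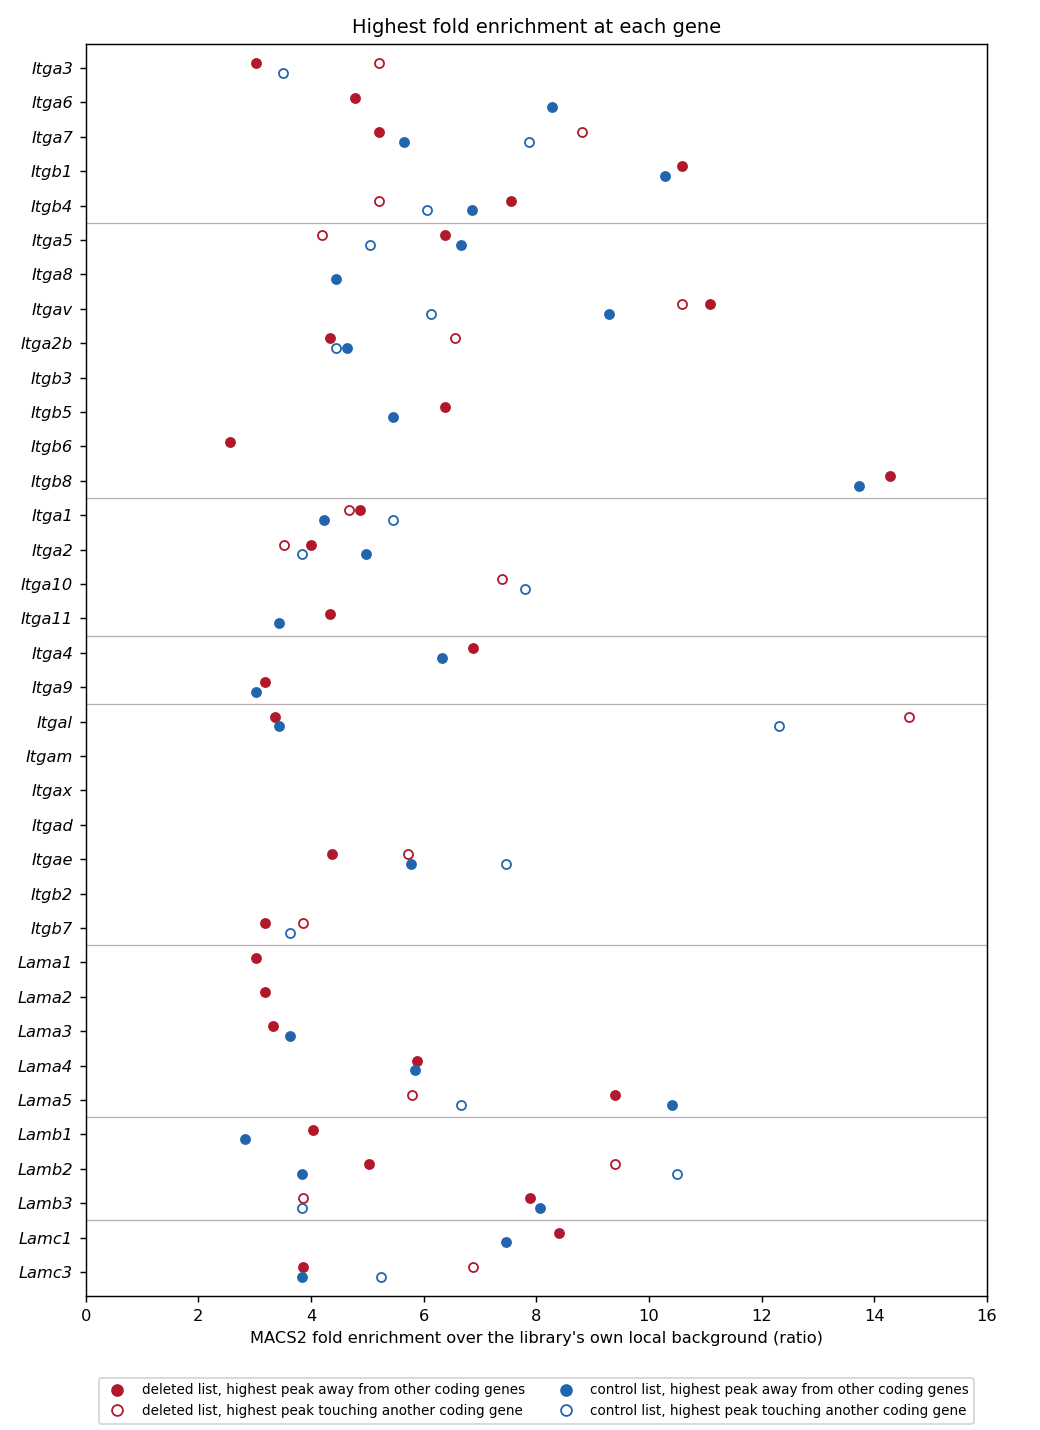
Highest fold enrichment over local background (horizontal axis) among the peaks of each member shown, in the deleted and the control list, with open circles for peaks that touch another coding gene. Itgal (14.6 and 12.3) and Itgb8 (14.3 and 13.7) stand highest, and no point is drawn where a list has no peak.

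All 5 laminin-binding integrin genes were marked in both lists, as were 64.4% of all genes. The deleted list held 41 peaks for them, 25 with no overlapping control peak, and the control list 21, of which 2 had no overlapping deleted peak. Over all coding windows these shares were 48.7% and 22.9%, and the difference of so few peaks was not tested. Itgb1 encodes the beta1 subunit, the partner of most of these alpha subunits (gene body chr8:128685654-128733579). Its peaks flanked the start on both sides in both lists. Upstream, summits 0.243 kb (deleted) and 0.355 kb (control) before the start had folds of 9.91 and 10.3. Downstream, summits 0.505 and 0.507 kb after it had folds of 10.6 and 9.48. Only 1 of its 4 deleted peaks and 0 of its 3 control peaks were list-only, and both flanks of the Itgb1 start were among the strongest peaks of all members.

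Itga6, the alpha6 subunit of the main laminin receptors of neural stem cells, had 9 deleted and 3 control peaks. Its strongest peak lay at the lower end of the gene body (chr2:71786886-71858427). It was 1274 bases long with a fold of 4.78 in the deleted list, and 1209 bases long with a fold of 8.27 in the control list. The summits lay 1.19 kb and 0.375 kb inside the body, with pileups of 42 and 40. The local background under them was 8.0 and 3.96, the latter being the lowest value of the control list. Neither the pileups nor the folds are scaled for depth, so no change is read from them. Of the Itga6 peaks, 7 deleted and 1 control were list-only.

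Itga7, the alpha7 laminin receptor of muscle, had 12 deleted and 9 control peaks. Its highest folds of 8.81 and 7.87 were within 1 kb of an end of the neighbouring gene Bloc1s1. Among peaks that touched no other coding gene, the highest Itga7 folds were 5.21 and 5.65. Itga3, the alpha3 subunit, had 6 deleted peaks and 1 control peak. Its highest folds of 5.21 and 3.50 came from a peak at the neighbour Pdk2, and without that peak the control list had none for Itga3. The other 5 deleted peaks were all list-only, with folds up to 4.03, and up to 3.02 where they touched no other coding gene. Itgb4, the beta4 subunit that anchors epithelial cells at hemidesmosomes, had 10 deleted and 5 control peaks. Its strongest peak lay outside the body, 4.51 kb (deleted) and 4.17 kb (control) below its lower coordinate, with folds of 7.56 and 6.86. Within the body itself Itgb4 had deleted peaks only.

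The integrins that bind the RGD motif of fibronectin and vitronectin were unlike one another. Of the 8 genes, 5 had peaks in both lists, and the group had 52 deleted and 34 control peaks. Itgb8 encodes the beta8 subunit, which pairs with alphav and activates latent TGF-beta in the brain. It had the strongest peak of all members among peaks at their own gene. This peak covered the start of Itgb8 (gene body chr12:119162803-119238276). In the deleted list it was 1872 bases long with a pileup of 84 and a fold of 14.3, higher than 99.6% of that list. In the control list it was 1771 bases long with a pileup of 67 and a fold of 13.7, higher than 99.5%. Its summit lay 0.430 and 0.369 kb after the start. A further shared peak 1.12 kb upstream had folds of 5.11 and 4.62. Of 15 deleted and 9 control Itgb8 peaks, 8 and 1 were list-only, and none of those reached a fold of 5.

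Itgav, the alphav subunit shared by several beta subunits, had 13 deleted and 8 control peaks (gene body chr2:83722303-83806917). The deleted list had a single peak of 2748 bases over the start with a fold of 11.1. The control list had 2 peaks in the same place, of 937 bases (fold 4.71) upstream and 1173 bases (fold 9.28) downstream. The other strong Itgav peak, with folds of 10.6 and 6.12, was at the neighbouring gene Fam171b. Itgb5, the beta5 partner of alphav, had 9 deleted and 5 control peaks, and 0 control peaks were list-only. Its start peak, 0.486 kb downstream in both lists, had a fold of 6.38 (pileup 37) in the deleted list and 3.23 (pileup 15) in the control list. A peak about 49 kb into Itgb5 had folds of 6.38 and 2.30, with pileups of 37 and 22 and local backgrounds of 4.96 and 9.0. The value of 4.96 is the lowest local background of the deleted list. Another shared Itgb5 peak, 53.7 kb (deleted) and 53.6 kb (control) into the gene, had 5.71 and 5.45.

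Itga5, the fibronectin receptor subunit, had 8 deleted and 6 control peaks, the strongest at 0.404 and 0.434 kb after the start, with folds of 6.38 and 6.66. Itga2b, the platelet alphaIIb subunit, had 6 and 5 peaks. A peak at the neighbour Fam171a2 had folds of 6.55 and 4.44, and the strongest peak of Itga2b itself had 4.33 and 4.64. Itga8, an alpha subunit known from kidney development, had 0 deleted peaks and 1 control peak. That peak was 175 bases long, 0.152 kb after the start, with a pileup of 21 and a fold of 4.44. Itgb6, an epithelial beta subunit, had 1 deleted peak of 246 bases, with a pileup of 17 and a fold of 2.57, and 0 control peaks. Itgb3, the platelet and bone beta3 subunit, had 0 in both lists. Of these single peaks, that of Itgb6 was among the weakest of its list, higher than 3.74%, and that of Itga8 was higher than 59.7% of its list.

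The 4 collagen-binding alpha subunits had 20 deleted and 17 control peaks, and all 4 genes were marked in both lists. Itga2 had 8 deleted and 9 control peaks, with highest folds of 4.0 and 4.98. Itga1 had 5 in each list. Over the Itga1 start the folds were 4.87 and 4.24, while the highest control fold of 5.45 was at the neighbour Pelo, which lies inside the Itga1 body. Itga11 had 6 deleted and 2 control peaks with highest folds of 4.33 and 3.43. Itga10 had 1 peak in each list, with summits 9.83 and 10.1 kb from the body, at the edge of the window. Itga4, a subunit that binds fibronectin and VCAM-1, had 2 deleted and 3 control peaks. The start peak of Itga4 had folds of 6.88 and 6.33, with summits 0.569 and 0.576 kb after the start. Itga9, its close relative, had 1 weak shared peak (3.19 and 3.03) far inside a body of 294 kb.

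The 7 leukocyte integrin genes fell into 2 kinds. Itgb2, Itgad, Itgam and Itgax, which encode the beta2 subunit and its myeloid alpha partners, had 0 peaks in both lists. For Itgb2, peaks lay beyond the window of 10 kb: within 25 kb of its body there were 8 deleted and 9 control peaks. Their highest folds were 6.0 and 10.7, and whether they lay at neighbouring genes was not checked. Itgal, Itgae and Itgb7 had peaks in both. Itgal, the alphaL subunit of LFA-1, had 7 deleted and 4 control peaks. Its strongest pair, of 1404 and 1403 bases with pileups of 86 and 60, had folds of 14.6 and 12.3, the highest deleted fold of all members, but it lay within 1 kb of an end of the neighbour Zfp768, its summit 10.7 kb outside the Itgal body. Without peaks that touch another coding gene, the highest Itgal folds were 3.36 and 3.43. Itgae, which binds E-cadherin, had 11 deleted and 10 control peaks, and its highest folds of 5.71 and 7.46 were at Haspin, a gene inside the Itgae body. Its own strongest peaks had 4.37 and 5.77. Itgb7, the beta subunit of gut-homing lymphocytes, had 6 and 3 peaks with highest folds of 3.86 and 3.63, from different places at the neighbour Zfp740. The deleted one was list-only inside the Itgb7 body, and the control one, 8.05 kb outside it, overlapped a deleted peak of 3.17. None of the 7 leukocyte integrins had a peak of its own of 5 or more in the deleted list, and Itgae alone did in the control list.

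The 5 laminin alpha chain genes had 54 deleted and 40 control peaks. Lama5, the alpha5 chain of most adult basement membranes, held most of them, with 31 and 26 (gene body chr2:180176373-180225904). The lengths of its deleted peaks added up to 16.1 kb and those of its control peaks to 12.6 kb. This was the densest marking among the members, at 44.6 and 37.4 peaks per 100 kb. The strongest Lama5 peaks lay inside the gene. Summits 7.40 and 7.65 kb from the start had folds of 9.40 and 9.20, and the adjacent ones at 6.77 and 6.80 kb had 8.56 and 10.4. Within 1 kb of its start Lama5 reached 4.03 and 4.80. Of its peaks, 13 deleted and 6 control were list-only.

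Lama4, the alpha4 chain of vessel walls, had 15 deleted and 12 control peaks over a body of 145 kb, with highest folds of 5.88 and 5.85 in an overlapping pair. It held the only list-only peak of 5 or more among all members. That Lama4 peak, in the deleted list, was 523 bases long with a pileup of 31 and a fold of 5.37, and it lay between shared peaks. Lama1, the alpha1 chain of the earliest embryonic basement membranes, had 2 deleted peaks and 0 control peaks. They were 172 and 552 bases long, with pileups of 16 and 17 and folds of 2.85 and 3.02. Lama2, the alpha2 chain of muscle and brain, also had 2 deleted peaks and 0 control peaks. The Lama2 peaks were 171 bases each. The first lay 0.181 kb after the start with a fold of 3.19, and the second 562 kb into the gene with a fold of 3.02. Lama3, the alpha3 chain of skin, had 4 deleted and 2 control peaks, none of which overlapped, with highest folds of 3.33 and 3.63.

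The 3 laminin beta chain genes had 36 deleted and 23 control peaks. Lamb3, a chain of the epithelial laminin of hemidesmosomes, had 25 and 15 of them (gene body chr1:193294353-193343878). The strongest Lamb3 peak was 630 bases long in both lists, with folds of 7.89 and 8.07. Its summits lay 36.7 kb from the nearest listed start, which is itself inside the body. Of the deleted peaks of Lamb3 13 were list-only, and of its control peaks 3. Lamb2, the beta2 chain of synapses and kidney, had 9 and 7. Its highest folds of 9.40 and 10.5 belonged to a peak at the neighbour Usp19, 0.532 and 0.634 kb past the end of Lamb2, and its own strongest peaks had 5.04 and 3.83. Lamb1, the beta1 chain of most embryonic laminins, had 2 deleted peaks and 1 control peak, none overlapping. The deleted one 0.629 kb after the start had a fold of 4.03, and the control one, 56.9 kb in, had 2.82.

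Among the laminin gamma chain genes, Lamc1 and Lamc3 had peaks in both lists. Lamc1 encodes the gamma1 chain found in most laminins (gene body chr1:153218922-153332786). It had 24 deleted and 14 control peaks. The strongest lay at the upper end of the Lamc1 body, 1586 bases with a fold of 8.40 in the deleted list and 1236 bases with a fold of 7.46 in the control list. Inside Lamc1, a pair with pileups of 43 in both lists had folds of 5.50 over a local background of 7.0 and of 7.24 over 5.08. Lamc3, a gamma chain of brain and retina, had 18 and 10 peaks, the strongest at the neighbour Aif1l with folds of 6.88 and 5.25, and its own with 3.86 and 3.83. The 3 chains of the laminin made of alpha5, beta1 and gamma1 thus differed widely, with 31, 2 and 24 deleted peaks at Lama5, Lamb1 and Lamc1.

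In the deleted list 200 of 274 summits (73.0%) fell in a member's body, and in the control list 127 of 181 (70.2%). The body is also the larger part of most windows, with a median of 62.5 kb and 10 kb added on each side. The share over all genes was not counted, so no preference for the body is read from these numbers. Another protein-coding gene, its body extended by 1 kb, was touched by 47 deleted peaks (17.2%) and 36 control peaks (19.9%). For 9 members in each list the strongest peak was one of these. Without them, 25 members had peaks in both lists. Itga3, Itgb6, Itgb7, Lama1 and Lama2 then had deleted peaks only, Itga8 a control peak only, and Itga10 joined the 5 without any. A fold of 5 or more in both lists was kept by 12: Itga4, Itga5, Itga7, Itgav, Itgb1, Itgb4, Itgb5, Itgb8, Lama4, Lama5, Lamb3 and Lamc1.

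**Figure D3:**
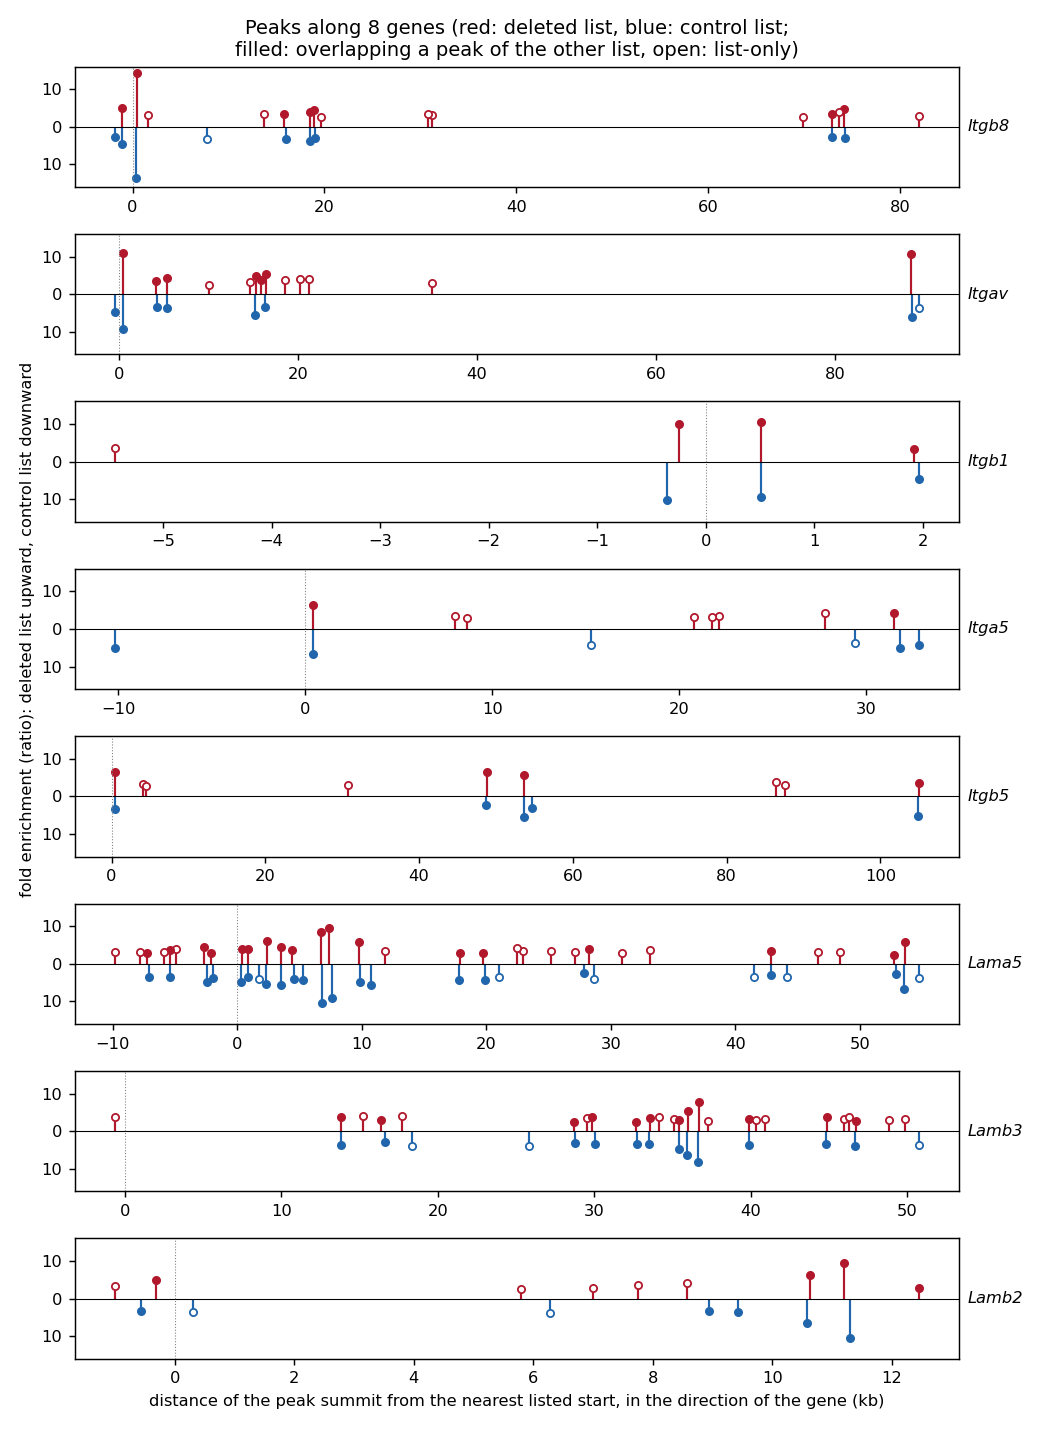
Distance of peak summits from the nearest listed start in kb (horizontal axis) against fold enrichment (vertical axis, deleted list upward and control list downward) for 8 members, filled where the peak overlaps one of the other list. Itgb8, Itgav and Itgb1 have their strongest own peaks near 0, while those of Lama5 and Lamb3 lie inside the gene.

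List-only peaks were weak peaks. Of the members' deleted peaks, 155 of 274 (56.6%, exact 95% interval 50.5 to 62.5) overlapped no control peak, against 48.7% in all coding windows. Of the control peaks, 46 of 181 (25.4%, 19.2 to 32.4) overlapped no deleted peak, against 22.9%. Under a fold of 5 the shares were 65.8% and 32.9%, against 62.4% and 33.0%. At 5 or more, 1 of 40 deleted peaks (2.50%) and 0 of 41 control peaks (interval 0 to 8.60%) were list-only, against 3.99% and 1.06%. Within each class of strength the members were close to all genes. They held fewer strong peaks, 14.6% of their deleted and 22.7% of their control peaks reaching 5, against 23.4% and 31.7%. These intervals reflect counting error alone. Adjacent peaks are not independent of one another.

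**Figure D4:**
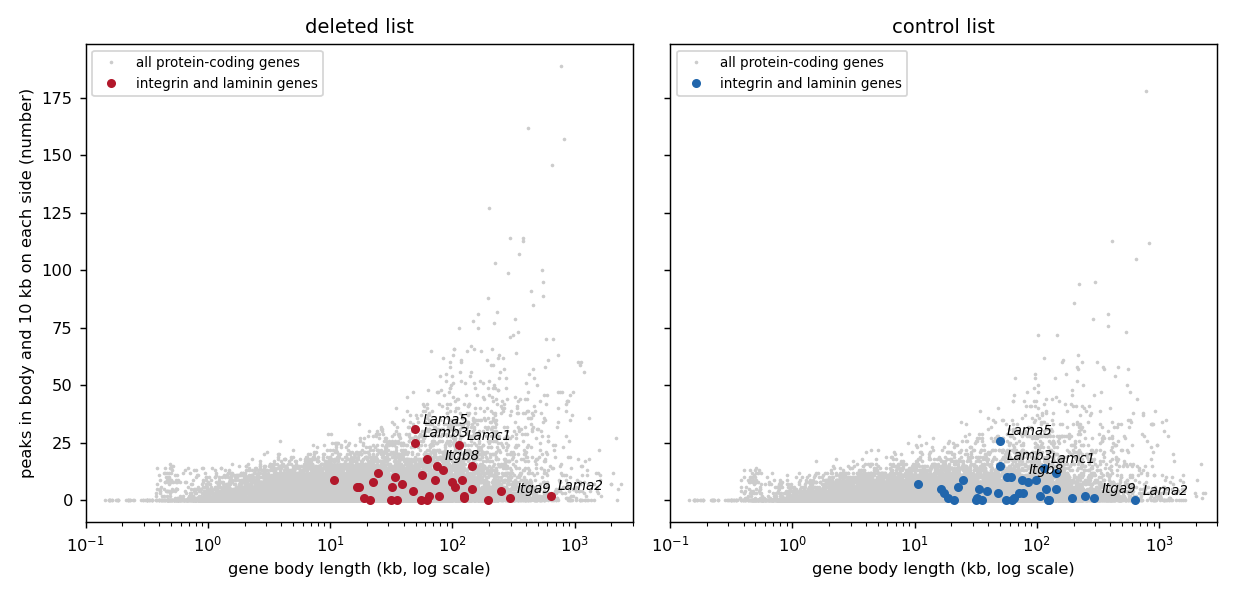
Gene length in kb (horizontal axis, log scale) against the number of peaks in the body and 10 kb on each side (vertical axis) for members and, in grey, all protein-coding genes, with 1 panel per list. In the deleted list Lama5 and Lamb3, with bodies of 49.5 kb each, have 31 and 25 peaks, while Lama2, the longest member at 636 kb, has 2.

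Promoters were examined for the 23 members with an entry in the RefSeq promoter table, 3 of which had more than 1 entry. In the window of 300 bases, 5 members had peaks in both lists (21.7%, against 32.7% of all genes with an entry): Itgb8, Itgb1, Itgav, Itga4 and Itga1. In the deleted list only there was 1, Lamb2 (4.35%, against 9.48%), and in the control list only there was 1, Itga8 (4.35%, against 1.81%). The Lamb2 peak of the deleted list, 559 bases with a fold of 5.04, overlapped a control peak of 186 bases with a fold of 3.23 that ended upstream of the window, so both lists marked that place. Within 1 kb on each side of the start, a choice made after the values were seen, 9 members had peaks in both lists (39.1%, against 51.2%). Itga2, Lama2, Lamb1 and Lamb3 then had peaks in the deleted list only (17.4%, against 5.11%), with folds from 3.19 to 4.03, and Itga8 in the control list only. For some members, such as Lamb3 and Itga9, the listed starts lie well inside the gene body, so these windows do not cover the end of the body. With lists of equal length the same 9, 4 and 1 members were found, and the share of all genes in the deleted list only was 3.68%. In the narrow window 16 members had none.

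Member promoters had a median of 11 CpG dinucleotides, against 13 for all promoters. The 7 with a peak had a median of 13 CpG (4 to 27), and the 19 without had 6 (1 to 24). The ranges overlapped, as the Lamb2 and Itga8 runs above show. Motifs were searched as exact letters on both strands. The GC box GGGCGG was found in 12 of 26 member promoters, against 46.7% of all 21044. CCAAT was in 4, against 38.5%. The AP-1 letters TGANTCA were in 3, against 7.04%, the Sox-type letters ACAANG in 7, against 37.8%, and TATAAA in 0, against 12.7%. None of these motifs contains another. The Itgb8 run holds 1 CCAAT and 1 Sox-type match, the Itgav run 1 GC box, the Itga8 run 1 Sox-type match, and the Lamb2 run none of the 5 motifs.

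Genes that act with integrins and laminins were counted in the same way. Of 24 adaptor and signalling genes, 20 had peaks in both lists (83.3%, against 64.4% of all genes), Lims2 (3.53) and Ptk2b (2.43) in the deleted list only, and Fermt1 and Parvg in neither. They had 435 deleted and 347 control peaks, and 17 and 18 of the 24 genes reached a fold of 5, a share that was 54.2% and 51.7% over all genes. Talin, which joins integrin tails to actin, had highest folds of 7.75 and 11.9 at Tln1. Ilk, a scaffold at beta tails, had 11.2 and 11.7, and Pxn, which encodes paxillin, had 10.1 and 9.48. Of 16 genes for basement membrane partners and other ligands, 9 were marked in both lists (56.2%) and 5 in neither, among these Nid1, a linker of laminin to collagen IV, and Fn1, fibronectin. The X-linked Col4a5 and Col4a6 had deleted peaks only (12.5% of the 16 genes, against 5.48% of all genes). Each had 1 peak of the same fold of 3.19, and whether this was 1 peak counted for both genes was not checked. Hspg2, perlecan, had 29 and 12 peaks with highest folds of 6.38 and 5.85. All 8 genes for other laminin receptors and integrin partners were marked in both lists, such as Dag1, dystroglycan (7.39 and 6.46), and Cd81 (13.1 and 11.3). For all these listed genes, whether the highest folds came from peaks at neighbouring genes was not checked.

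The labelled cell type was checked against markers with the same windows. All 8 neural stem cell markers had peaks in both lists, against 64.4% of all genes, and all 8 reached a fold of 5 in each, with median highest folds of 13.1 and 13.3. Of 7 microglia and leukocyte markers, 6 had peaks in both lists and Cx3cr1 in neither, but 2 reached a fold of 5 in each list, with medians of 4.04 and 3.71. Endothelial markers had 2 of 6 in both, fibroblast markers 2 of 6, epithelial markers 1 of 6 and neuron markers 4 of 6. The endothelial markers Cdh5 and Cldn5 had deleted peaks only (33.3%, against 5.48% of all genes). A fold of 5 was reached in both lists by Pecam1 of endothelium (7.33 and 9.28) and Map2 of neurons (8.86 and 9.48). The fibroblast marker Col1a1 reached it in the deleted list (5.37) and not in the control list (4.84). A window can hold a neighbour's peak, and the part of other cells in the members' peaks was not tested.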

How the data were processed

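H3K27ac ChIP-seq of 1 deleted and 1 control library, each with its own input, was used. The submitters' processing notes name bcl2fastq, Bowtie 0.12.9, MACS2 2.1.0.20140616 and the build mm10. Per the file headers, each ChIP had its own narrow peak calling by the authors against its input (q-value limit 0.05, larger library down-sampled, 1 tag per position). The deposited lists held 91639 and 63698 peaks, of which 91557 and 63613 on chromosomes 1 to 19 and X were compared. The input libraries kept 77101643 (deleted) and 80601280 (control) tags, per the file headers. For each peak the authors deposited the pileup signal at its summit, −log10 of the p-value and q-value, and the fold enrichment ratio over local background.

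Peaks were joined to RefSeq gene bodies (GRCm38.p6) in Python 3.11.15 with pandas 2.3.3 and numpy 2.4.6. Exact Clopper-Pearson intervals came from SciPy 1.17.1. Overlap of 1 base with the other list made a peak shared, and a peak without it is called list-only. Local background was computed as (pileup + 1) / fold − 1. A peak that touched another coding gene's body extended by 1 kb was not counted as a member's own. No peak lay in the windows of more than 1 member. The interval join was tested on simulated lists and recovered all 1500 planted overlaps of 5000 intervals.

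All members enter the counts, and 1 of them is not reported here by name or drawn. Members with peaks in 1 list or neither, with a list-only peak of 5 or more, or among the 10 highest folds are described with their folds and peak numbers. The members and lists were chosen with earlier results of these data known. Of the 37 members, 14 had no promoter entry. Windows, thresholds, list lengths and the overlap rule were varied. For promoters, the window of 1 kb on each side of the start and the repeats with lists of equal length were chosen after seeing the data. The RNA-seq of the series' design text was not analysed here. No aligner setting is given in the sources used here.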

Additional observations from a re-analysis of the deposited data

How the results depend on the processing

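Strength filters, applied to both lists before overlaps were counted, moved the counts most. At a fold of 5 or more, 17 members had peaks in both lists (against 49.5% of all genes) and 16 in neither (against 43.6%). There were 2 members in the deleted list only (against 4.66%) and 2 in the control list only (against 2.19%). Members kept 40 deleted and 41 control peaks, and 27.5% of the deleted and 29.3% of the control peaks were list-only. At −log10 q of 5 or more, 10 members had none, against 34.6% of all genes. In member windows 118 deleted peaks (46.6% list-only) and 87 control peaks (18.4% list-only) were left. With lists of equal length, Lama2 was the 1 member in the deleted list only, against 3.70% of all genes. Itga8 and Itga9 were the 2 in the control list only, against 1.84%. In this setting 182 deleted peaks were left, and list-only shares were 45.1% (deleted) and 35.4% (control). Window widths other than the body alone kept these counts of members and peaks within 1.5 times. Members in the deleted list only numbered 6 in gene bodies alone, against 6.40% of all genes. They numbered 5 without peaks at other coding genes, a setting with no computed share of all genes. When an overlap needed 50% of a peak, 69.7% of deleted peaks were list-only. The list-only shares under these changed settings were not computed over all genes, so they are not read as a trait of the members. With 1 kb on each side of the start, chosen after seeing the data, 9 members had promoter peaks in both lists and 4 in the deleted list only, with and without lists of equal length. In the narrow promoter window equal lengths left the counts at 5, 1 and 1. Over all alternatives, 406 of 592 counts per member stayed within 1.5 times the value reported and 186 moved. No paired analysis was possible because each group had 1 library. For these settings the cause of the change was not tested, beyond the fewer peaks that each filter leaves.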
